A study of Mus musculus with 8 samples.

Results

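RLTR6 and VL30 elements are mouse endogenous retroviruses, and the small RNAs described here are the sequences that the authors' deposited table annotated to them. Members were all distinct sequences whose annotation started with RLTR6 or contained VL30, which gave 32084 of 6246223 distinct sequences of all lengths. The choice used only the annotation name. Of the members, 27654 (86.2%) were 24 to 33 nt long, the size of piRNAs, and every value below is for these unless another length is given. They carried 3 names. RLTR6-int had 18619 of them, MMVL30-int 6977 and RLTR6_Mm 2058. The ending "-int" marks the internal region of a retroviral element, and RLTR6_Mm is the long terminal repeat (LTR) that stands at its ends.

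The libraries were made from RNA of 19 to 33 nt from mouse testes. The labels gave 8 groups with 1 library each, namely heterozygous and homozygous tdrd6 mutants (tdrd6-KO) at 18 days, 25 days and 6 weeks of age, and heterozygous and homozygous tdrd1 mutants (tdrd1-KO) at 18.5 days post conception. Tdrd1 and Tdrd6 encode Tudor-domain proteins of male germ cells that bind Piwi proteins. The table pooled the libraries and tied no sequence to any of them, so genotypes and ages could not be compared, and no library can be shown to hold a given member. It gave no read numbers, so the depth was unknown and each sequence counted once. There were no replicates. Intervals are 95% Clopper-Pearson intervals that cover counting error only, and members that share a 5′ end or come from copies of the same element are not independent of each other, so no test was run.

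VL30 elements are retrotransposons with the structure of a retrovirus and without intact genes for its proteins, so that their movement depends on proteins supplied by other retroviruses. Their RNA starts in one LTR and ends in the other, and reverse transcription begins from a transfer RNA (tRNA) that pairs with a primer binding site just inside the first LTR. In germ cells, Piwi proteins loaded with piRNAs cleave such transcripts. A piRNA usually starts with U, its target is cut across from a fixed position near the piRNA's 5′ end, and the cut target can become a new piRNA that overlaps the first by 10 nt and has A at position 10. This reciprocal cleavage of sense and antisense RNA is called the ping-pong cycle.

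The sequences printed here mostly start with T, and a minority of them have A at position 10. Sequences with the same first 20 nt were taken to share a 5′ end, so they can differ in length or in later bases. The 6 5′ ends with most distinct sequences among internal names, and the 6 among LTR names, are given by their longest sequence of at most 30 nt, 5′ to 3′, with T standing for U. Capitals mark T at position 1 and A at position 10.
MMVL30-int, internal 5′ end 1: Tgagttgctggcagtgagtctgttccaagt
MMVL30-int, internal 5′ end 2: Tggtacacggatggcagtagcctagaggtt
MMVL30-int, internal 5′ end 3: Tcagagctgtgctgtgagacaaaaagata
MMVL30-int, internal 5′ end 4: TccaactccAgagagcagcctgcgggtcac
RLTR6-int, internal 5′ end 5: aaaagagctAtggtggaccagagatcccct
MMVL30-int, internal 5′ end 6: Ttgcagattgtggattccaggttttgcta
RLTR6_Mm, LTR 5′ end 1: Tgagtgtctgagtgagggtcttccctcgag
RLTR6_Mm, LTR 5′ end 2: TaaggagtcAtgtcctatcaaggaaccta
RLTR6_Mm, LTR 5′ end 3: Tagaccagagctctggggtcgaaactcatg
RLTR6_Mm, LTR 5′ end 4: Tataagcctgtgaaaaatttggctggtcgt
RLTR6_Mm, LTR 5′ end 5: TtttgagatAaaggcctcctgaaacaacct
RLTR6_Mm, LTR 5′ end 6: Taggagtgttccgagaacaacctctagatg

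The first 2 internal 5′ ends had 16 distinct sequences each, with lengths from 24 to 31 nt and from 25 to 31 nt. The first LTR 5′ end had 12, from 25 to 32 nt. Among the internal 5′ ends, 5 of 6 belonged to MMVL30-int, although RLTR6-int held 67.3% of the members. Such 5′ ends were exceptions, since 72.5% of the 17596 member 5′ ends had 1 distinct sequence only. The 1% of 5′ ends with most sequences held 5.56% of the members.

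Opposite-strand partners were found by sequence. The 4 pairs shown overlap by exactly 10 nt at their 5′ ends, with 1 member of the pair assigned to the sense strand of the element and the other to its antisense strand (the assignment is described further on). They are the pairs of this kind with most distinct sequences at their 5′ ends. Capitals mark the 10 overlapping bases, and each run of capitals is the reverse complement of its partner's.
MMVL30-int sense, pair 1: TGAGTTGCTGgcagtgagtctgttccaggt
MMVL30-int antisense, pair 1: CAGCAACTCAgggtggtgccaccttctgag
RLTR6-int sense, pair 2: AAGTTCTGTAtggaggacctcccccttta
RLTR6-int antisense, pair 2: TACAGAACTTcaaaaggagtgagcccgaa
MMVL30-int sense, pair 3: TCCAACTCCAgagagcagcctgcgggtcac
MMVL30-int antisense, pair 3: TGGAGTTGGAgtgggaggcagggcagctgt
RLTR6-int sense, pair 4: AAAAGAGCTAtggtggaccagagatccctt
RLTR6-int antisense, pair 4: TAGCTCTTTTatgttatacctctcatcct

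In pair 1 the sense sequence starts with T and the antisense sequence has A at position 10. In pairs 2 and 4 the order is the other way round, with T first in the antisense sequence and A at position 10 of the sense sequence. In pair 3 both start with T and both have A at position 10. The sense 5′ ends of the 4 pairs had 16, 12, 15 and 14 distinct sequences, and the antisense 5′ ends had 8, 8, 5 and 4.

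The lengths had a single main peak with a smaller peak at 19 nt. The modal length was 28 nt in RLTR6-int and RLTR6_Mm and 27 nt in MMVL30-int, and the means were 27.8, 27.9 and 27.6 nt. Below the main window there were 1059 members of 19 nt, against 636 of 18 nt and 448 of 20 nt. The lower limit of the size selection was also 19 nt, and its part in this peak was not tested. The ratio of 19-nt to 20-nt members was 2.59 in MMVL30-int, 2.19 in RLTR6-int and 2.81 in RLTR6_Mm. The list of murine leukemia virus-like elements (RLTR4_MM-int, RLTR4_Mm and MuLV-int) had a similar ratio of 2.46. It was 1.77 in IAPEz-int, the internal region of intracisternal A particles, 1.23 in mRNA sequences and 0.842 in the MurERV4 and RLTR14 names.

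**Figure D1:**
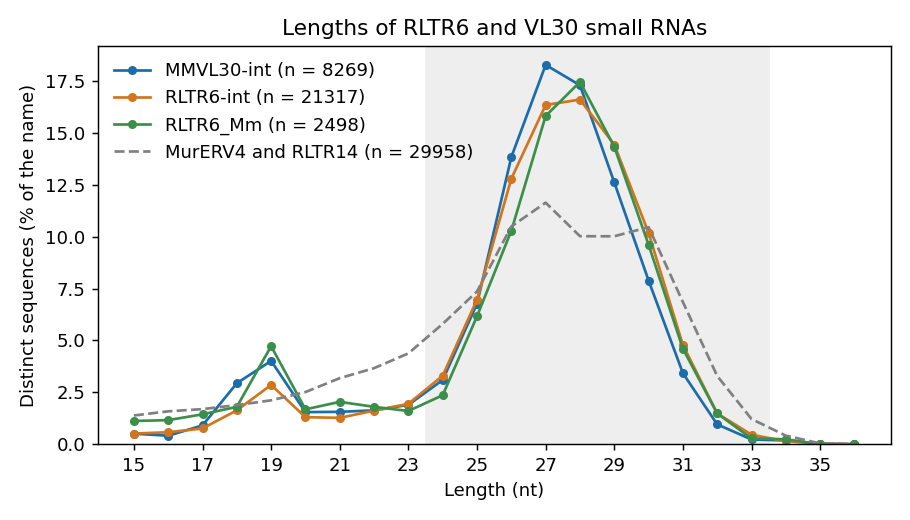
Lengths of all members by annotation name, as a percentage of the distinct sequences of that name, with the 24 to 33 nt window shaded and the MurERV4 and RLTR14 names as a dashed line. The 3 names peak at 27 or 28 nt and again at 19 nt. The dashed line shows no peak at 19 nt, but its list was drawn up from these data and is not an independent contrast.

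The first base differed little between internal and LTR names, and A at position 10 was slightly more frequent in the LTR. T was the first base of 68.4% of members (67.8 to 68.9), with 68.9% in MMVL30-int, 68.2% in RLTR6-int and 68.3% in RLTR6_Mm. Of the members, 40.6% (40.0 to 41.2) had A at position 10, against 24.1% with A at position 9 and 26.6% with A at position 11. It was found in 40.4% (39.8 to 41.0) of internal sequences and 43.4% (41.3 to 45.6) of LTR sequences. Members that did not start with T had it in 57.7%, and those that did in 32.7%. By length, A at position 10 was least frequent at 25 nt (28.8%) and most frequent at 29 nt (48.5%). Members with A at position 10 that lacked T at the start averaged 28.1 nt, and members that started with T and lacked that A averaged 27.6 nt.

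Set beside 4 other lists, the members had A at position 10 at a rate closest to that of the murine leukemia virus-like elements. The share was 42.1% in murine leukemia virus-like sequences and 45.7% in IAPEz-int. It was 28.7% in the MurERV4 and RLTR14 names and 25.8% in mRNA sequences. T came first in 64.5%, 61.2%, 66.6% and 78.4% of these 4 lists in the same order. The MurERV4 and RLTR14 list was drawn up with its low share of A at position 10 known from these data. That share is therefore not an independent contrast, and neither are the list's partners given below. The lists also differed in how many of their sequences mapped to 1 position, with 24.4% (23.9 to 24.9) of members, 16.8% of murine leukemia virus-like, 13.6% of IAPEz-int and 92.3% of MurERV4 and RLTR14 sequences.

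Members from a single position and members from many positions differed in both bases. Of the 6752 members that mapped to 1 position, 74.1% started with T and 36.2% had A at position 10. Of the 10620 that mapped to more than 50 positions, 63.8% started with T and 42.8% had A at position 10. Members of 2 to 10 and of 11 to 50 positions lay between these for T, with 71.6% and 66.8%. LTR sequences mapped to 1 position in 10.4% (9.16 to 11.8) of cases, against 27.4% in RLTR6-int and 20.7% in MMVL30-int. The median number of positions was 46 in the LTR and 17 in the internal names. Because the table gives no coordinates, the copies behind these positions were not placed.

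Partners at an overlap of 10 nt were above the background in every name, by similar ratios. For each overlap, 10 bases were compared, and overlaps of 11 to 20 nt served as background. Of all member 5′ ends, 35.0% (34.3 to 35.7) had a partner at 10 nt, against a mean of 19.0% (SD 1.07) over the other overlaps and a highest value of 20.8%. The LTR had 42.1% (39.4 to 44.9) against a mean of 23.02% and a highest of 26.1%. The internal names together had 34.3% (33.5 to 35.0) against 18.5%. RLTR6-int alone had 34.4% against 18.1%, and MMVL30-int 29.1% against 15.5%. The ratio to the background was 1.83 in the LTR, 1.90 in RLTR6-int and 1.87 in MMVL30-int. Among 5′ ends of members that mapped to 1 position, 9.15% had a partner within that subset at 10 nt, against 3.68% at the other overlaps. By name this was 8.90% (8.02 to 9.83) in RLTR6-int, 7.15% (5.83 to 8.67) in MMVL30-int and 4.28% (1.86 to 8.26) in the LTR, where 8 of 187 5′ ends had such a partner and the highest background value was 3.74%.

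Partners lay mostly within a name. A partner needs complementary bases, so the search itself finds few between names with different sequences. Only 0.184% of internal 5′ ends had a 10 nt partner among LTR 5′ ends, against a background of 0.118%. Of LTR 5′ ends, 2.91% had one among the internal names, against 1.76%. The ratios to the background were 1.56 and 1.66. MMVL30-int found partners among RLTR6-int 5′ ends in 5.65% of cases, against 3.36%. With unrelated lists of the same size, the members had a partner at 10 nt in 3.03% of cases among mRNA 5′ ends, against a background of 2.22%, and in 2.49% among IAPEz-int 5′ ends, against 1.80%. Murine leukemia virus-like 5′ ends had partners within their own list in 40.4% of cases against 21.3%, IAPEz-int in 55.4% against 42.2%, MurERV4 and RLTR14 in 11.1% against 8.26%, and mRNA in 2.80% against 2.55%. The share with a partner rises with the number of 5′ ends searched, which differed between the lists (1270 for the LTR, 9319 for MurERV4 and RLTR14, 17596 for IAPEz-int), so each share is to be read beside its own background.

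**Figure D2:**
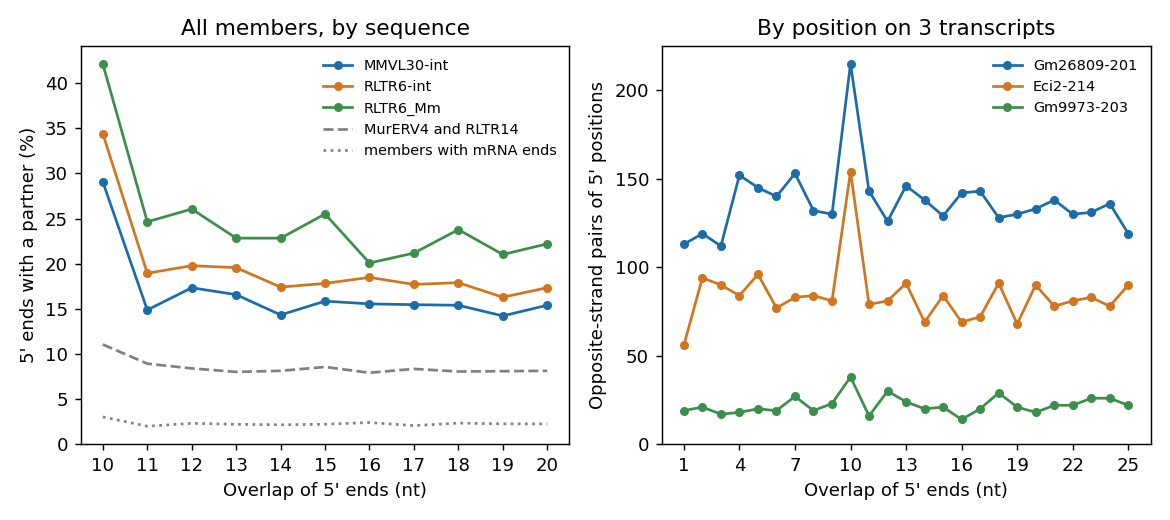
Left, the percentage of 5′ ends with an opposite-strand partner against the overlap of the 5′ ends in nt, for each name within itself, for MurERV4 and RLTR14 within themselves, and for members with mRNA 5′ ends. Right, the number of opposite-strand pairs of 5′ positions against their overlap on 3 transcripts. The 3 names stand highest at 10 nt, with 42.1%, 34.4% and 29.1%, and Gm26809-201 and Eci2-214 peak there with 215 and 154 pairs.

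Some 5′ ends carried another annotation as well, in sequences of another length. This was the case for 5.23% of MMVL30-int 5′ ends, 3.41% of RLTR6-int and 0.866% of RLTR6_Mm. The other names were mostly those of related retroviral internal regions, with 141 5′ ends shared with MuRRS-int, 133 with RLTR1B-int and 122 with MMERGLN-int. Only 45 5′ ends were shared between MMVL30-int and RLTR6-int.

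Transcripts that hold pieces of these elements gave the members a position and a strand. Over their whole length and without mismatch, 5814 members (21.02%) matched 106 transcripts of GENCODE release M21 on GRCm38, and 38 transcripts had at least 20 matching members. Only 182 of the 6752 members that mapped to 1 position matched a transcript, so a match shows where a member's sequence occurs and not where it was transcribed. Transcripts and members that shared runs of 18 bases were joined into groups. Only 1 group was given a direction, by a primer binding site, which lies on the sense strand of the element. Members of all other groups received no strand. The site used to set the direction was on the strand opposite to the pseudogene Gm15280 (chromosome X, 31347183 to 31347822, minus strand, exonic). Its bases, all in capitals, are complementary to the 3′ end of a tRNA for proline.
Binding site, sense strand of the element: TGGGGGCTCGTCCGGGAT

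Besides the site that set the direction, binding sites for glycine tRNA occurred at 7 places on 4 transcripts, and all 7 lay on the strand that had been assigned as sense. All 18 members that contained a site for glycine or proline tRNA were likewise assigned to the strand that the site gave, 13 of them RLTR6_Mm and 5 RLTR6-int. Several of the 7 places have the same 18 bases, and identical runs of 18 bases receive the same strand by construction. The 7 places, and members that share such runs with them, are therefore not separate checks of the direction. The 5 MMVL30-int members with a site, for glutamine or arginine tRNA, received no strand, so binding sites did not check the direction of MMVL30-int. In all, 45.8% of members received a strand, with 7937 sense and 4734 antisense. The share with a strand was 89.3% in RLTR6_Mm, 74.4% in MMVL30-int and 30.3% in RLTR6-int. The strand of the remaining 14983 members is unknown.

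MMVL30-int was the name with the highest share on the sense strand, and its direction rests on the shared runs and not on a binding site of its own. It had 3937 sense and 1257 antisense sequences, so 75.8% (74.6 to 77.0) were sense. RLTR6-int had 3085 and 2555, with 54.7% (53.4 to 56.0) sense, and RLTR6_Mm had 915 and 922, with 49.8% (47.5 to 52.1) sense. With runs of 16 shared bases, MMVL30-int had 26.3% sense, but 2 links then contradicted each other. The LTR stretch and the internal stretch of the transcript Gm20186-203 came out on opposite strands at 16 bases, whereas at 18 and at 20 bases both were sense.

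The bases differed between the strands, and not in the same direction in each name. In the LTR, 79.3% (76.6 to 81.9) of sense sequences and 56.9% (53.7 to 60.2) of antisense sequences started with T. The share with A at position 10 was 33.4% (30.4 to 36.6) in sense and 53.8% (50.5 to 57.1) in antisense LTR sequences. MMVL30-int had T first in 68.4% of sense and 63.6% of antisense sequences, and A at position 10 in 38.02% and 52.1%. RLTR6-int was the other way round, with T first in 63.2% (61.5 to 64.9) of sense and 68.5% (66.6 to 70.3) of antisense sequences, and A at position 10 in 46.0% (44.2 to 47.8) and 41.8% (39.9 to 43.7). These values cover only the 30.3% of RLTR6-int members that received a strand. Of those, 11.4% of sense and 10.6% of antisense sequences mapped to 1 position. Of RLTR6-int members without a strand, 34.5% mapped to 1 position and 69.3% started with T. Antisense MMVL30-int sequences were also longer, with a mean of 27.99 nt against 27.6 nt for sense.

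**Figure D3:**
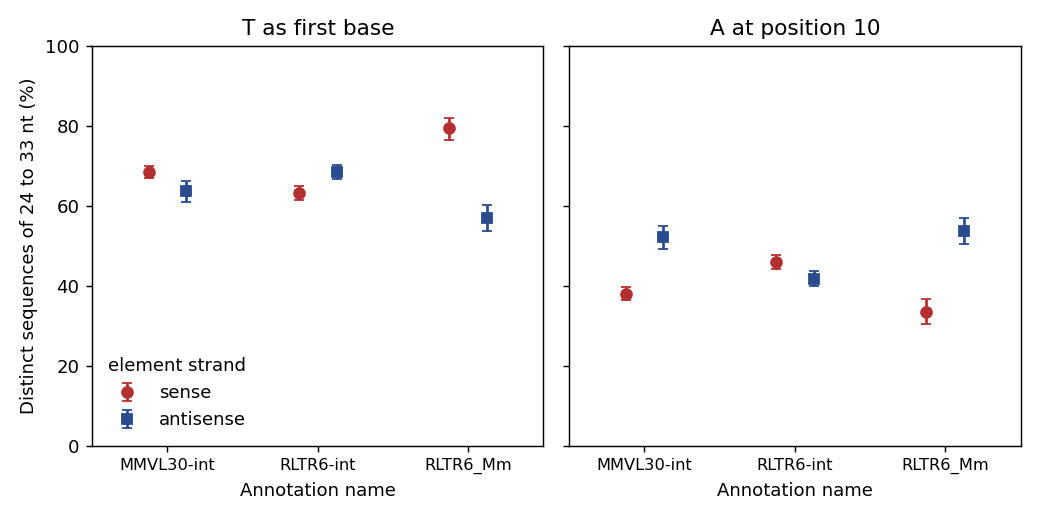
Percentage of members of 24 to 33 nt with T as first base (left) and A at position 10 (right), by annotation name and strand of the element, with 95% Clopper-Pearson intervals. The sense and antisense points lie farthest apart in RLTR6_Mm (79.3% and 56.9% for T) and are in the opposite order in RLTR6-int.

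The paired 5′ ends repeated this order. Sense and antisense 5′ ends formed 2025 pairs with a 10 nt overlap. In RLTR6_Mm, T was the first base of the sense sequence alone in 47.1% of 359 pairs and of the antisense sequence alone in 15.04%. In MMVL30-int the shares were 37.5% and 26.2% of 667 pairs, and in RLTR6-int 33.7% and 35.9% of 952 pairs. Both sequences of a pair started with T in 31.2%, 29.7% and 24.3% of pairs in these names, and neither did in 6.69%, 6.60% and 6.09%. Since T at position 1 of one sequence means A at position 10 of its partner, these shares restate the base composition of the pairs and are not a separate measurement.

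Sense and antisense 5′ ends of each name had partners at 10 nt above the background. In MMVL30-int, 54.5% (51.1 to 57.9) of the 857 antisense 5′ ends had a sense partner at 10 nt, against a background of 32.03%. Of the 2231 sense 5′ ends, 24.2% (22.4 to 25.99) had an antisense partner, against 13.5%. The ratios to the background were similar, 1.70 and 1.80, and the shares differ with the number of 5′ ends searched on the other strand. In RLTR6-int the shares were 47.2% and 41.8%, against 25.7% and 22.8%, and in RLTR6_Mm 42.5% and 44.4%, against 22.7% and 26.7%. Where 5′ ends of the sense strand were searched against the same strand, 0.787% had such a partner, against 0.504%. The assignment gives complementary runs opposite strands, so these low shares follow from it and are not a control.

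Gm26809 was the annotated gene with most matching members. It is a long intergenic noncoding RNA gene on chromosome 6 (18844220 to 18847360, plus strand), and its spliced transcript Gm26809-201 has 3 exons and 2981 nt. It runs antisense to the element, and 2265 members matched its exons, 1737 of them MMVL30-int and 528 RLTR6-int. The element's sense strand, opposite to the transcript, held 1649 of them and the antisense strand 616. In each of the 28 bins of 100 nt with any member, sense sequences outnumbered antisense ones. T came first in 63.7% of sense and 55.7% of antisense sequences, and A was at position 10 in 33.8% and 52.3%. At an overlap of 10 nt there were 215 opposite-strand pairs of 5′ positions, against a mean of 134 (SD 11.05) and a highest of 153 over the other overlaps from 1 to 25 nt. The first 2000 nt of the transcript were orientated directly, while the stretch from 2227 to 2971, which holds the RLTR6-int matches, was given the same direction because it lies in the same exon. The gene Gm20186, which runs sense to the element, overlaps it on the minus strand (18845910 to 18848207), so that the overlapping part of the locus is annotated on both strands.

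A transcript of Eci2 showed RLTR6-int and LTR sequence with less difference between strands. Eci2 encodes an enzyme of fatty acid oxidation, and its noncoding transcript Eci2-214 (gene on chromosome 13, 34977748 to 35027096, minus strand) has a second exon of 2786 nt at 35005214 to 35007999 that held all 1403 matches. Of these, 1246 were RLTR6-int and 157 RLTR6_Mm. The sense strand had 790 and the antisense strand 613, and sense sequences were the more numerous in 20 of 29 bins of 100 nt. T came first in 64.6% of sense and 66.4% of antisense sequences, and A was at position 10 in 46.8% and 45.5%. There were 154 pairs at 10 nt, against a mean of 81.2 and a highest of 96. The transcript is annotated as noncoding, and the matches say nothing about the enzyme's mRNA.

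**Figure D4:**
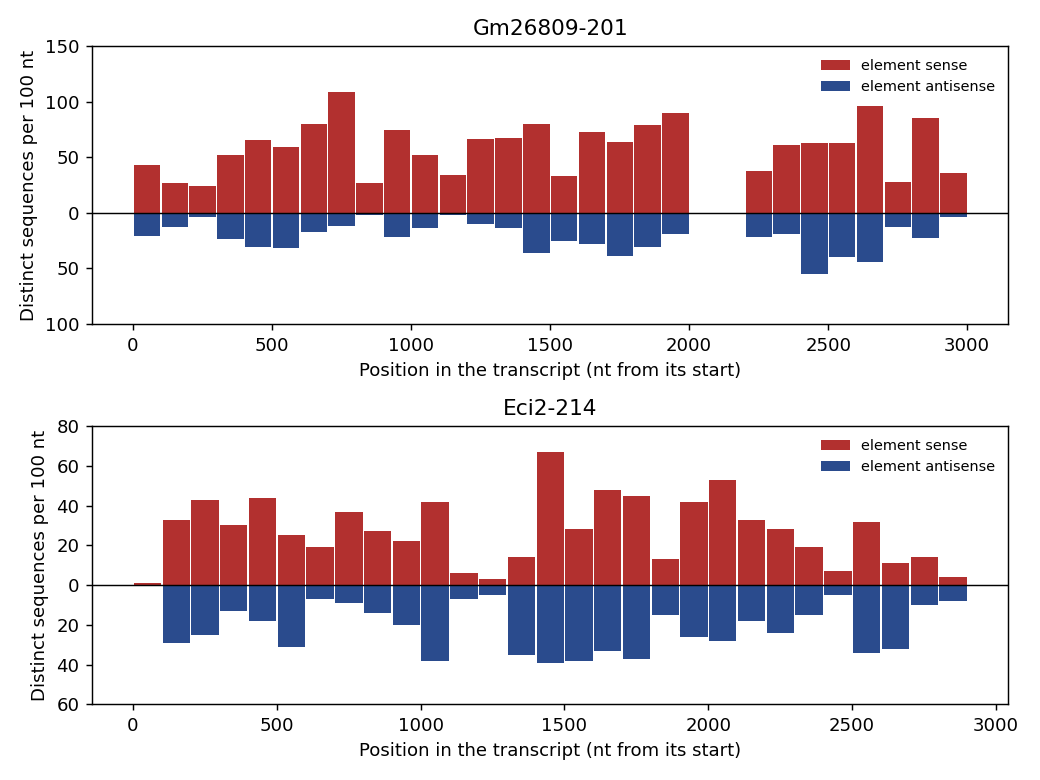
Distinct members of 24 to 33 nt per 100 nt of transcript, by the position of their match, with sequences of the element's sense strand above the line and antisense sequences below it. On Gm26809-201 sense sequences are the more numerous in all 28 filled bins, and on Eci2-214 in 20 of 29.

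The other transcripts varied. Of the 13 transcripts with mostly MMVL30-int matches, 12 had more sense than antisense sequences. Of the 5 placed ones with mostly RLTR6-int matches, 2 had more sense and 2 more antisense sequences, and of the 17 with mostly LTR matches, 6 had more sense and 10 more antisense sequences. The 2 RLTR6-int transcripts with more antisense sequences, BC035947-201 and BC035947-202, belong to the same gene and had 24 sense and 46 antisense matches each. Pairs at 10 nt exceeded every other overlap on 23 of the 38 transcripts, did not on 15, and were below the mean of the other overlaps on 6. AC160336.1-201, a long noncoding RNA on chromosome 14 (44544055 to 44637201), had 759 sense and 300 antisense matches, nearly all MMVL30-int, with 66 pairs at 10 nt against a mean of 40.9 and a highest of 56. Gm12840-201, a long noncoding RNA on chromosome 4 (117700188 to 117700923), had 327 and 137, with 49 pairs against a mean of 30.3. Gm15287-201 on chromosome 13 matched 404 RLTR6-int sequences, 202 on each strand. For the LTR, Gm9973-203 on chromosome 13 matched 243 sense sequences, of which 83.5% started with T and 25.1% had A at position 10, and 148 antisense sequences with 51.4% and 65.5%. Gm48942-201 on chromosome 14 had 169 sense sequences with 79.9% and 30.8%, and 123 antisense sequences with 43.1% and 74.0%. D10Wsu102e-201 on chromosome 10 was the MMVL30-int transcript with more antisense matches, 82 against 7, and it had 0 pairs at 10 nt against a mean of 0.333. Gm32856-201, with 61 sense and 15 antisense matches, also had 0 pairs, against a mean of 1.21. Transcripts can share members, and some belong to the same gene, as for BC035947, Olfr1033 and Gm20186. They are therefore not independent observations of the same pattern.

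Members of 19 nt that matched transcripts were followed directly by piRNA-length 5′ ends more often than at other distances. Small RNAs of this length are known as by-products of piRNA cleavage, left on the 5′ side of the cut that makes a new piRNA. Of the 1059 members of 19 nt, 452 had a transcript match, and of these 184 (40.7%, 36.1 to 45.4) were followed on the same strand, with no gap, by the 5′ end of a 24 to 33 nt member. The mean over distances of 2 to 20 nt was 23.2% and the highest value 27.4%. On the opposite strand, 201 (44.5%, 39.8 to 49.2) had a piRNA-length 5′ end 10 nt beyond their 3′ end, against a mean of 21.4% and a highest of 27.0% at other distances. The neighbouring lengths had 23.7% (18 nt) and 26.5% (20 nt) followed without a gap, and 18.1% and 22.7% with the opposite-strand 5′ end at 10 nt. Both arrangements come together where the following member and the opposite one are themselves partners at 10 nt. Of all 19-nt members, 37.8% (34.8 to 40.8) started with T, and 34.2% were the first 19 nt of a longer member.

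Such trios on Gm12840-201 are shown, all annotated to MMVL30-int. Capitals mark the 10 bases shared by the sequence that follows the 19-nt member and, as its reverse complement, by the opposite sequence.
19 nt, trio 1: aaatcctgtcagatcccta
Following, trio 1: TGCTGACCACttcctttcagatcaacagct
Opposite, trio 1: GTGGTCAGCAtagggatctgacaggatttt
19 nt, trio 2: tttgtgttcggacttggac
Following, trio 2: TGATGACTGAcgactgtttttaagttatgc
Opposite, trio 2: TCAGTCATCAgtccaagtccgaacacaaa

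In both trios the lower-case part of the opposite sequence continues as the reverse complement of the 19-nt member, so that it spans the junction between that member and the one that follows.

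**Figure D5:**
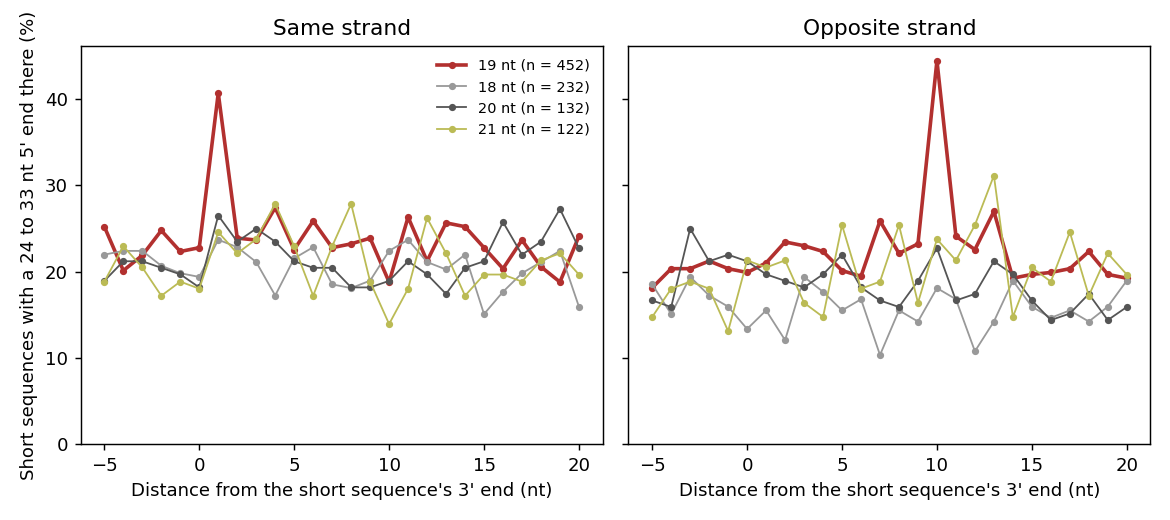
Percentage of short members matched to transcripts that have the 5′ end of a 24 to 33 nt member at each distance from their 3′ end, on the same strand (left) and on the opposite strand (right), for members of 18, 19, 20 and 21 nt. Members of 19 nt stand at 40.7% at a distance of 1 nt on the same strand and at 44.5% at 10 nt on the opposite strand.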

How the data were processed

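Small RNA from mouse testes was sequenced in 8 libraries. The authors deposited 1 table with 3 columns, which per the file headers held the sequence, the number of positions it mapped to and an annotation. That map number, a value of another kind than a read count, is the only measure in the table. The aligner, genome build, annotation order and any minimum read number are not given in the sources used here. The members and lists were chosen with earlier results of these data known.

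Shares were computed over distinct sequences of 24 to 33 nt, and 25 to 32 nt was the alternative. Printed sequences were those of the 5′ ends with most distinct sequences, up to 6 for internal and 6 for LTR names, and up to 4 pairs with most, restricted after the values were seen to pairs with a sense and an antisense sequence. The trios and the sequences ending in CCA were also chosen after their values were seen. Names with at least 200 sequences are described. Partners were sought by sequence, comparing 10 bases, and IAPEz-int and mRNA were sampled to 17596 5′ ends (seed 1). Transcripts were those of GENCODE release M21 (GRCm38), spliced, searched on both strands, and a genome was not used here. Stretches of matches less than 50 nt apart were joined. Primer binding sites were searched as TGG followed by the reverse complement of any run of 15 bases in a tRNA-annotated sequence. The run was not required to lie at the 3′ end of the tRNA. Matching, partner search and strand assignment were tested on simulated data. For the strands, the simulation held copies of the same element and runs of 18 bases only. It therefore did not test strands joined across different names. Python 3.11.15, pandas 2.3.3, numpy 2.4.6, scipy 1.17.1 and matplotlib 3.10.9 were used.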

Additional observations from a re-analysis of the deposited data

Results flagged for a closer look

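Among members shorter than 24 nt, 29 ended in CCA and otherwise matched a sequence annotated to a tRNA. They lie outside the lengths described above and are listed because their share was higher than in the other lists. They were 0.664% (0.445 to 0.952) of 4370 short members, against 0.231% (0.0848 to 0.502) in murine leukemia virus-like elements, 0.0610% in IAPEz-int, 0.0298% in MurERV4 and RLTR14 and 0.0149% in mRNA sequences. The intervals of the members and of the murine leukemia virus-like elements overlapped. RLTR6_Mm had 15, RLTR6-int 9 and MMVL30-int 5. By tRNA, 16 matched glycine, 7 proline, 5 glutamine and 1 alanine, and all 5 of MMVL30-int matched glutamine. Several of the 29 differ from each other only in where they start, so they are not independent of each other. A tRNA carries CCA at its mature 3′ end, and a primer binding site is the complement of that end. One of each of the 3 main kinds is shown, with CCA in capitals.
Glutamine, MMVL30-int: atctcggtgggacctCCA
Glycine, RLTR6_Mm: ttcccggccaacgcaCCA
Proline, RLTR6-int: atcccggacgagcccCCA

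These mapped to 91, 56 and 165 positions. The proline sequence is the reverse complement of the binding site given for Gm15280. Whether such sequences come from tRNAs or from the elements was not tested.

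Another 60 members were longer than 33 nt, the upper limit of the size selection, and the longest had 35 nt. They were listed because they lie outside the described window. RLTR6-int had 37, MMVL30-int 17 and RLTR6_Mm 6. Below the lower limit of the size selection, 19 nt, there were more, namely 1275 members of 15 to 18 nt.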

How the results depend on the processing

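The window of 25 to 32 nt was run for the shares with T first, A at position 10 and 1 position, which stayed within their intervals, and for the partner excess, which was 16.1 percentage points in both windows. With only members that mapped to 1 position, T came first in 74.1% (68.4% for all), A at position 10 fell to 36.2% (40.6%), the excess of 5′ ends with a partner at 10 nt over the background fell to 5.47 percentage points (16.1), and the mean length was 27.7 nt in both. With each 5′ end counted once, T came first in 62.9%, A was at position 10 in 39.2%, and 27.7% mapped to 1 position (24.4%). The partner excess was 19.4 points with 1 mismatch allowed, 16.9 with 5′ ends of 24 nt, and 32.3 with only 5′ ends that have A at position 10, whose partners start with T by construction. It was 0.807 points with mRNA partners and 0.687 with IAPEz-int partners. Without RLTR6-int, 9035 members remained of 27654. The strand assignment was chosen after seeing the data. With shared runs of 16 bases the sense share was 42.7% for all members (62.6% with 18 bases) and 26.3% for MMVL30-int (75.8%), with the 2 contradictory links described above. For RLTR6-int it was 50.5% (54.7%) and for RLTR6_Mm 49.4% (49.8%). With 20 bases it was 62.6% for all members and 75.6% for MMVL30-int. No paired analysis was possible because the table ties no sequence to a library. Depth was unknown, so the absence of a sequence from the list sets no limit on its level.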
